A study of Arabidopsis thaliana with 4 samples.

Results

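CASP1, CASP2, CASP4 and CASP5 are Arabidopsis genes for Casparian strip membrane proteins. They were chosen by gene identifier, as 4 of the 32538 genes with a deposited FPKM value, by a rule that uses no measured level. The choice was made with earlier results of these data known. CASP proteins are small proteins with several membrane spans that gather in a belt of the endodermal plasma membrane. There they form a scaffold that brings peroxidases and other secreted proteins to the wall, where a lignin-based ring, the Casparian strip, seals the space between cells. The endodermis is the innermost layer of the ground tissue around the vascular cylinder. In the root, SHORT-ROOT (SHR) moves from the vascular cylinder into this layer, acts there with SCARECROW (SCR), and stands upstream of MYB36, the transcription factor that switches on the CASP genes.

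Hypocotyls, the seedling stems below the cotyledons, were cut from 5-day-old dark-grown seedlings of wild type Col-0 (2 libraries) and of the shr-2 mutant in the Col-0 background (2 libraries). The design text calls the libraries biological duplicates. The labels do not say whether seedlings were pooled, and shr-2 is 1 mutant allele. The titles and source names give this grouping, but the genotype field of the mutant libraries reads SCL28-OX #10 and the tissue field of all 4 reads root tip. SHR read 28.4 and 28.9 FPKM in wild type against 2.57 and 3.45 FPKM in shr-2. SCL28 read 5.00 and 5.24 FPKM in wild type against 5.81 and 5.57 FPKM in shr-2, and its log2 fold change of 0.13 missed the threshold (limma, adjusted p = 0.412). The 9 listed markers of root tip and root hair summed to between 0.391 and 0.778 FPKM per library, with 1 of them, FEZ, listed at 0 throughout. Across genes, Pearson r between replicates was 0.984 in wild type and 0.981 in shr-2.

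All 4 CASP genes were expressed in the wild-type hypocotyl and were close to absent in shr-2. FPKM corrects a fragment number for transcript length and library size, so levels of different genes can be set side by side. CASP1 (AT2G36100, chromosome 2, 15159591 to 15160799, minus strand) read 114 and 146 FPKM in wild type and 0.779 and 0.0703 FPKM in shr-2. CASP5 (AT5G15290, chromosome 5, 4967011 to 4968092, plus strand) read 114 and 146 FPKM in wild type and 0.588 and 0.325 FPKM in shr-2. These most abundant members had nearly the same level in each wild-type library, and in neither gene did a mutant library come near a wild-type one.

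CASP2 (AT3G11550, chromosome 3, 3638178 to 3639348, plus strand) read 65.2 and 93.8 FPKM in wild type and 0.696 and 0.467 FPKM in shr-2. CASP4 (AT5G06200, chromosome 5, 1877134 to 1878324, plus strand) read 18.7 and 22.5 FPKM in wild type and 0.0611 and 0.148 FPKM in shr-2. Every mutant value of the 4 genes lay under 1 FPKM, and every wild-type value at 18.7 FPKM or more. In a bulk sample, fewer cells that express a gene and less RNA per cell cannot be told apart.

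**Figure D1:**
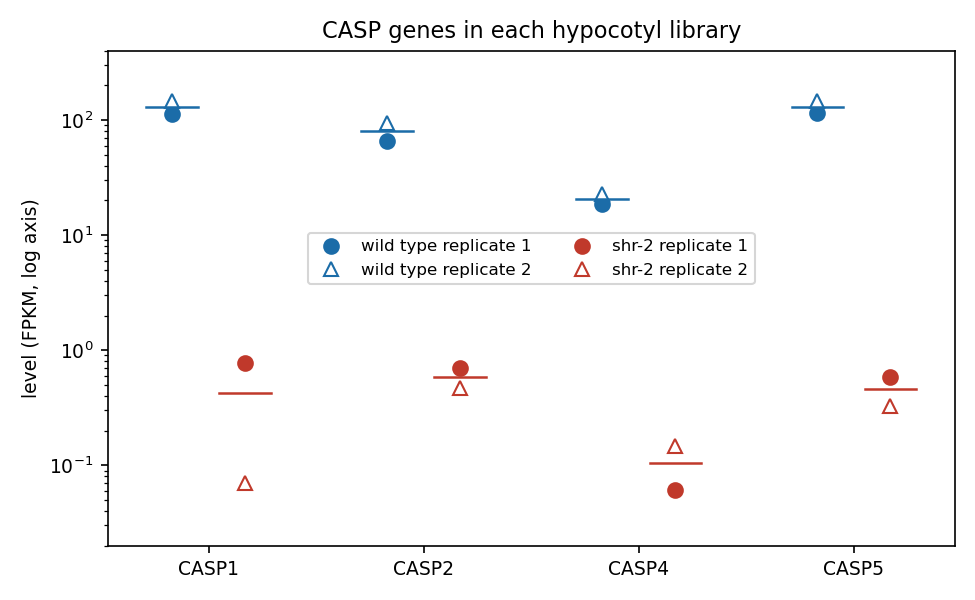
Level of 4 CASP genes in each library, in FPKM on a log axis. Points are single libraries and short lines are means of 2 libraries. Wild-type values run from 18.7 to 146 FPKM and shr-2 values from 0.0611 to 0.779 FPKM.

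The CASP genes, which belong to the same family, share an exon pattern. Each has 1 annotated transcript of 3 exons, and in each the middle exon is wholly coding and exactly 124 bases long. The outer exons differ in length, and coding lengths run from 564 bases in CASP5 to 621 bases in CASP1. Of 3313 annotated protein-coding genes with 3 exons, 18 (0.54%) have a middle exon of that length. Those 18 include, beside these CASP genes, 4 of the 35 CASP-like genes, the wider family of related membrane proteins. Of those 35 CASP-like genes, 28 have 3 exons. The middle exons are shown because they have the same length in the 4 genes. They were compared position by position, without an alignment. They are written 5′ to 3′ along the transcript (RefSeq, TAIR10.1), with capitals at the 44 of 124 positions (35.5%) where all 4 genes hold the same base.
CASP1, chr2:15160046-15160169, minus strand: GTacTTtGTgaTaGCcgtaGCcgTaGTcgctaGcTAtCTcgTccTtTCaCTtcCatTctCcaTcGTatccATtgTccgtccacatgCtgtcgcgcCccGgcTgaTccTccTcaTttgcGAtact
CASP2, chr3:3638627-3638750, plus strand: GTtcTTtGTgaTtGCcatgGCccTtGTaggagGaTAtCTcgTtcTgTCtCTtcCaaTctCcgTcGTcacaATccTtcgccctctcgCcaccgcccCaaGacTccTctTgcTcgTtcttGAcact
CASP4, chr5:1877688-1877811, plus strand: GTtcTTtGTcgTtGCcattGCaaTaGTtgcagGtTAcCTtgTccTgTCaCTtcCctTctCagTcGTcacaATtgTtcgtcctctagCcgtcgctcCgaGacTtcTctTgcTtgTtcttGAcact
CASP5, chr5:4967424-4967547, plus strand: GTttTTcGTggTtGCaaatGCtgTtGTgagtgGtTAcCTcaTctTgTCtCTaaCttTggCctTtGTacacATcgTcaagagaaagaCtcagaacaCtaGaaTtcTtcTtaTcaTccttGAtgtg

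**Figure D2:**
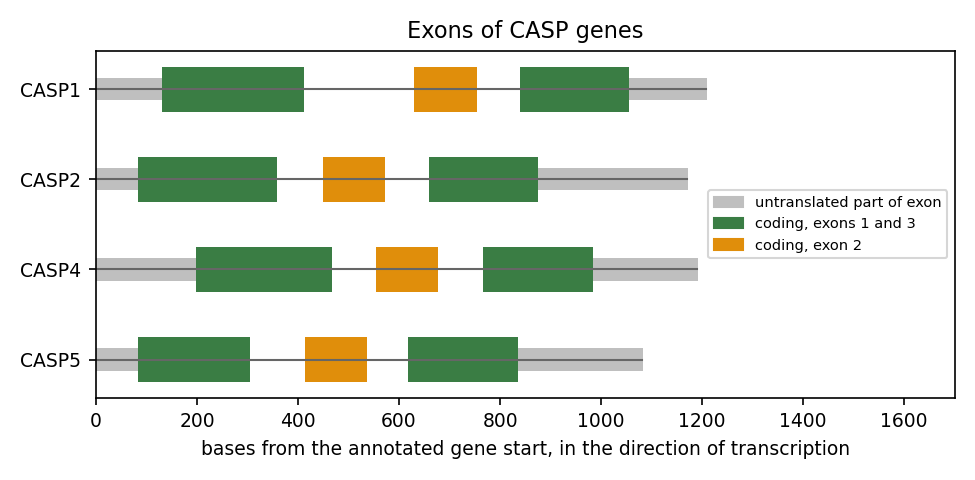
Exons of 4 CASP genes, to scale, in bases from the annotated gene start along the direction of transcription. Boxes are exons (tall where coding, low where untranslated) and lines are introns. The middle exon is 124 bases in all 4 genes, whereas the spacing of the exons differs.

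The members are related but not near-identical, which bears on how reads could be assigned. Over the coding sequence, identity in the 6 pairs ran from 54.6% for CASP1 and CASP5 to 79.8% for CASP2 and CASP4. CASP5 was about equally far from all the others, at 54.6%, 55.1% and 55.5% for CASP1, CASP2 and CASP4. CASP1 and CASP5, the pair with the lowest identity by a small margin, had the most similar levels. The longest run of identical bases that any pair of transcripts shared was 20, in CASP2 and CASP4. No transcript of another gene matched a CASP transcript at 90% identity or more over at least 100 bases. CASP1 overlaps AT2G36090 by 49 bases and CASP5 overlaps AT5G15300 by 4 bases, each on the opposite strand.

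Because the 4 genes moved together, the 250 bases before each annotated start are shown with 4 short motifs searched on both strands. The motifs were TATAAA (the TATA box core), TTTGTC (a core bound by the IDD zinc fingers, partners of SHR and SCR), ACCNAAC (an AC-type MYB element) and CACGTG (the G-box). Capitals mark the matches, and no matches overlapped. For CASP2, 173 of the 250 bases lie inside the upstream gene AT3G11540 (SPY), so only the 77 bases outside it are printed.
CASP1, chr2:15160800-15161049, minus strand: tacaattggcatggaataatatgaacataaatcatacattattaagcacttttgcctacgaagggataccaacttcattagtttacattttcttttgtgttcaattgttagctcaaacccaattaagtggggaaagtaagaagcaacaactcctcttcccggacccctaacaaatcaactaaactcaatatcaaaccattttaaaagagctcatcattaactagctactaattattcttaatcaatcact
CASP2, chr3:3638101-3638177, plus strand: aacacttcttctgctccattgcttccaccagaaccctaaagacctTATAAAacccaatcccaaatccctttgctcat
CASP4, chr5:1876884-1877133, plus strand: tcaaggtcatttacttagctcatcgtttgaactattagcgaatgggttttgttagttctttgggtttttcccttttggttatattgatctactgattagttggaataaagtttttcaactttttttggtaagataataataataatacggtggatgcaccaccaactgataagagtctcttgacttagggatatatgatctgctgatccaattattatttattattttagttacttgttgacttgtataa
CASP5, chr5:4966761-4967010, plus strand: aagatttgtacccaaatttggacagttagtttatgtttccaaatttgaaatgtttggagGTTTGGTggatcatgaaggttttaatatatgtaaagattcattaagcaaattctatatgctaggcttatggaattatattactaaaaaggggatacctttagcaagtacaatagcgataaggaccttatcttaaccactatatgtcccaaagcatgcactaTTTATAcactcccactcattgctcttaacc
TATAAA was found in 2 of the 4 windows (CASP2 and CASP5) and in 47.3% of 27443 windows of the same length before protein-coding genes. ACCNAAC was found in 1 of 4 (CASP5) and in 14.5% of all windows. TTTGTC and CACGTG were found in 0 of 4, and in 24.1% and 6.5% of all windows. None of the motifs was present in all 4 windows, and the windows of CASP1 and CASP4 held none of them.

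All 4 genes were called lower in shr-2 at an adjusted p under 0.05 in the fit over all genes, as were 13.7% of the 19920 genes tested. Differences are on the log2 scale of FPKM + 1, shr-2 minus wild type. CASP1 changed by -6.56 (SE 0.27, 95% interval -7.26 to -5.86, limma, adjusted p = 0.00033). CASP5 changed by -6.49 (SE 0.16, interval -6.91 to -6.07, limma, adjusted p = 0.000199), and the intervals of CASP1 and CASP5 overlap widely. CASP2 changed by -5.65 (SE 0.20, interval -6.16 to -5.14, limma, adjusted p = 0.000231).

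The least abundant, CASP4, changed by -4.29 (SE 0.14, interval -4.64 to -3.93, limma, adjusted p = 0.000203). The 1 FPKM added before the log bounds the fall of a gene by its wild-type level, so on this scale a less abundant gene cannot fall as far. Of all genes tested, 27.6% were called in either direction and 0.311% were called lower by at least 4 on this scale, as all 4 CASP genes were. Counted from the largest fall, CASP1 and CASP5 stood 6th and 7th of the genes tested, CASP2 stood 21st and CASP4 55th. With 2 libraries against 2, an exact permutation test of 1 gene cannot give a 2-sided p under 0.333, so the calls rest on the spread estimated across genes.

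On the linear scale, CASP1 averaged 130.1 ± 22.9 FPKM in wild type and 0.425 ± 0.501 FPKM in shr-2 (SD, n = 2 here and for the other members). CASP5 averaged 130.2 ± 22.4 and 0.456 ± 0.186 FPKM, and CASP2 averaged 79.5 ± 20.2 and 0.582 ± 0.162 FPKM. CASP4 averaged 20.6 ± 2.69 and 0.104 ± 0.0613 FPKM. In CASP1 the SD in shr-2 was larger than the mean. The shr-2 mean as a share of the wild-type mean was 0.327% for CASP1, 0.351% for CASP5, 0.506% for CASP4 and 0.732% for CASP2. This order differs from that on the log2 scale. Between single libraries the fold of wild type over shr-2 ran from 146 to 2080 for CASP1. For CASP2 it ran from 93.7 to 201, for CASP4 from 127 to 369 and for CASP5 from 194 to 449. The ranges of every pair of the 4 genes overlap, so single libraries do not order the genes by the size of their fall.

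The wild-type order of levels was stable between the libraries apart from the top. Of the summed level of the 4 genes, CASP1 held 36.5% and 35.8% in the wild-type libraries, CASP5 36.6% and 35.7%, CASP2 20.9% and 23.0%, and CASP4 6.0% and 5.52%. CASP1 and CASP5 did not differ beyond their spread, whereas the value ranges of CASP5, CASP2 and CASP4 followed each other without overlap. All 4 genes were higher in wild-type replicate 2 than in replicate 1, by 1.2-fold for CASP4 to 1.44-fold for CASP2. Across 12087 genes with a wild-type mean of at least 10 FPKM, the median of that ratio was 1.03 and 57.6% were above 1. A ratio at least that of CASP4 was found in 11.5% of these genes, and at least that of CASP2 in 1.56%.

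In shr-2 the order was not kept. The summed level of the 4 genes was 2.12 FPKM in shr-2 replicate 1 and 1.01 FPKM in replicate 2, against 312.2 and 408.6 FPKM in wild type. CASP1 ranked 1st of the 4 in shr-2 replicate 1 and 4th in replicate 2. These levels rest on few fragments. In single-transcript genes of 700 to 1400 bases, the lowest values above 0, multiplied by transcript length in kb, were commonest at 0.04 to 0.05 in 3 libraries and at 0.05 to 0.06 in shr-2 replicate 2. Taken as the worth of 1 fragment, this puts CASP1 at about 2300 and 2900 fragments in wild type and at about 15.7 and 1.2 in shr-2. CASP4 came to about 1.4 and 2.7 fragments in shr-2. Of the 8 mutant values, 3 rest on fewer than 3 estimated fragments and the other 5 on 5.3 to 15.7. The estimate is rough, since fragment counts were not used. CASP4 lay below CASP2 and CASP5 in both shr-2 libraries without overlap, the ranges of CASP2 and CASP5 overlap, and that of CASP1 spans from under the CASP4 mean to above every other value. Differences between the genes within shr-2 were not tested.

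The authors' deposited table called 2 of the 4 genes, against 24.8% of its 21844 completed tests. It gives q = 0.000587 for CASP2 and q = 0.0252 for CASP5. In the authors' deposited table CASP1, with the largest fold of the 4 (306), has q = 0.285 and CASP4, with a fold of 197, has q = 0.182, and neither was called. CASP1 and CASP4 were called in the fit used here, so for these genes the call depends on the test while the values are the same.

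Most listed regulators and wall proteins of Casparian strip formation were lower as well, and the listed signalling genes were mixed. The list held 23 genes for regulators, wall enzymes and signalling, all with a mean of at least 1 FPKM. It was written with earlier results of these data known, so its counts describe the list and are not independent support. Of these, 16 were called lower, 1 higher and 6 did not pass, against 13.7% called lower and 13.9% called higher among all genes tested. Their median log2 fold change was -3.76, against 0.01 over all genes tested. SHR, the gene mutated in shr-2, is on the list and counts among the 16 and in this median.

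Among the regulators, MYB36 (AT5G57620) read 19.6 and 18.7 FPKM in wild type and 0.158 and 0.0662 FPKM in shr-2, a log2 fold change of -4.18 (limma, adjusted p = 0.000199). Its shr-2 mean was 0.586% of wild type, inside the range of the CASP genes. SCR read 23.3 and 24.8 FPKM in wild type and 6.91 and 8.84 FPKM in shr-2, 32.7% of the wild-type mean. SCR was thus lower in shr-2 (limma, adjusted p = 0.00248), with a larger share left than MYB36 or any CASP gene.

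Of the enzymes and wall proteins, the peroxidase PER64 (AT5G42180), which the CASP scaffold holds at the strip, read 68.0 and 72.2 FPKM in wild type and 0.593 and 0.197 FPKM in shr-2. It overlaps AT5G42190 on the opposite strand, which read 120 and 117 FPKM in wild type and 137 and 140 FPKM in shr-2. PER72 (AT5G66390), a peroxidase linked to lignin formation, read 63.1 and 63.0 FPKM in wild type and 2.05 and 1.63 FPKM in shr-2. Across both peroxidases the highest shr-2 value was 2.05 FPKM and the lowest wild-type value 63.0 FPKM. Dirigent proteins guide the coupling of phenoxy radicals. The dirigent gene DIR18 (AT4G13580) read 51.3 and 59.5 FPKM in wild type and 0.388 and 0.109 FPKM in shr-2. DIR24 (AT3G55230) read 111 and 136 FPKM in wild type and 0.534 and 0.122 FPKM in shr-2. PER64, PER72, DIR18 and DIR24 all passed the test at an adjusted p of 0.000199 (limma). DIR18 overlaps 2 gene models on the opposite strand. The dirigent gene ESB1 (AT2G28670), chosen after its values were seen, kept 8.94% of its wild-type mean. It overlaps AT2G28671 on the opposite strand with 99.858% identity over the matched part. ESB1 read 118 and 136 FPKM in wild type and 10.2 and 12.5 FPKM in shr-2. AT2G28671 read 0.951 and 1.21 FPKM in wild type and 0.0835 and 0.259 FPKM in shr-2. The library kit marks strand, but whether counting used it is not stated, so the split of reads between these 2 genes is uncertain.

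Of the signalling genes, 2 were called lower and 1 higher. SGN1 (AT1G61590, PBL15), the receptor-like cytoplasmic kinase that relays the barrier-integrity signal, read 28.5 and 25.2 FPKM in wild type and 0.273 and 0.0979 FPKM in shr-2 (limma, log2 fold change -4.56, adjusted p = 0.000199). CIF1 (AT2G16385), a sulfated peptide ligand of that pathway, read 2.36 and 2.72 FPKM in wild type and 3.78 and 4.92 FPKM in shr-2. CIF1 was the 1 gene called higher (limma, log2 fold change 0.59, adjusted p = 0.0463), which no longer passed when either wild-type library (adjusted p = 0.190 and 0.124) or shr-2 replicate 2 (0.149) was left out. The receptor gene GSO1 was called lower (limma, log2 fold change -0.53, adjusted p = 0.0467), a call lost when any 1 of the 4 libraries was left out (limma, adjusted p of 0.0628 to 0.199). The 6 genes that did not pass, which include CIF2, TPST, RBOHF and EXO70A1, had log2 fold changes of -0.43 to 0.17.

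**Figure D3:**
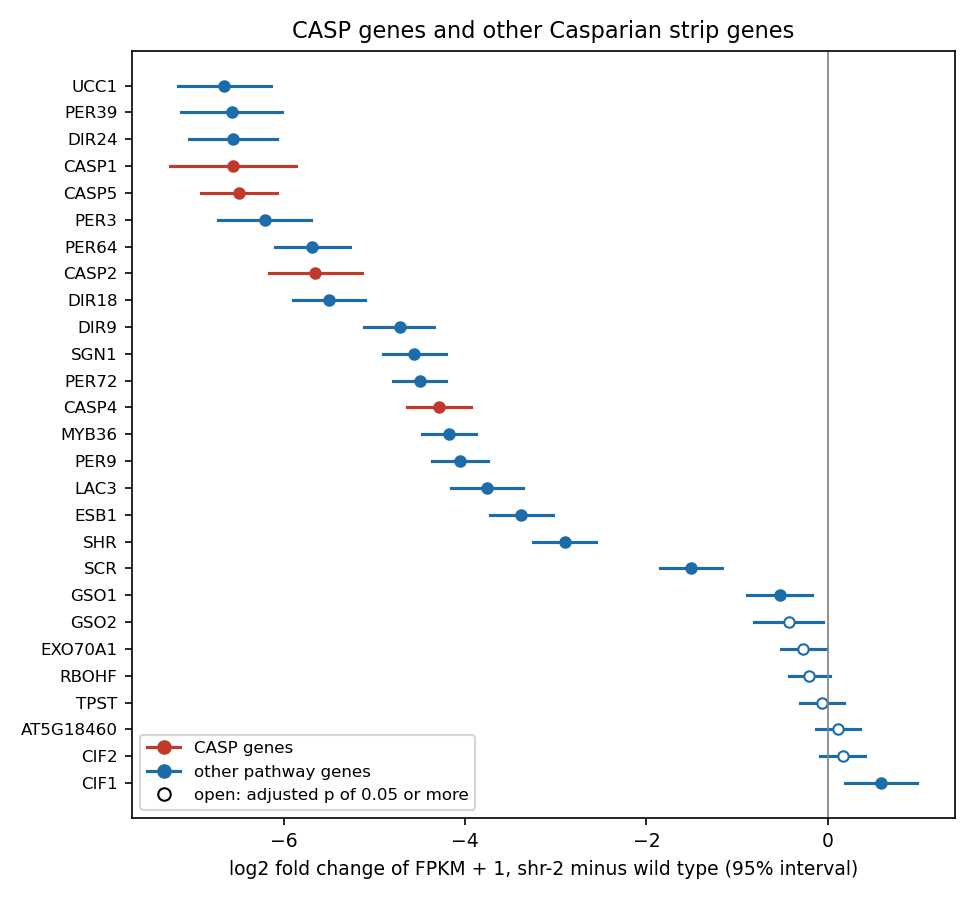
Log2 fold change of FPKM + 1, shr-2 minus wild type, for 4 CASP genes and 23 other Casparian strip genes, with 95% intervals from limma. SHR, the gene mutated in shr-2, is among the 23. Filled points passed the test. The CASP genes lie between -6.56 and -4.29 among enzymes, dirigent proteins and MYB36, and CIF1 at 0.59 is the 1 gene called higher.

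The genes nearest to each CASP gene in pattern were found by Euclidean distance of log2(FPKM + 1) over the 4 libraries. DIR24 and the peroxidase PER39 (AT4G11290) were nearest to CASP1, at distances of 0.251 and 0.270, and also to CASP5, at 0.270 and 0.294. CASP1 and CASP5 lay 0.349 apart. PER64 at 0.486 and the peroxidase PER59 (AT5G19890) at 0.588 were nearest to CASP2. AT5G17305 and AT5G56380, a gene annotated as an F-box protein, both at 0.217, were nearest to CASP4. Every gene named here as nearest was under 1 FPKM in both shr-2 libraries.

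Most genes of the wider CASP-like family were not lost in shr-2. Of 35 genes annotated as CASP-like, 26 had a mean of at least 1 FPKM, of which 4 were called lower, 5 higher and 17 did not pass. That is 15.4% called lower, near the 13.7% of all genes tested, and the median log2 fold change was -0.06. The other 9 were not tested.

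A single CASP-like gene with a wild-type mean of at least 10 FPKM fell to under 1 FPKM. CASP-like protein 1A1 (AT1G14160) read 8.85 and 11.4 FPKM in wild type and 0.114 and 0.0689 FPKM in shr-2, 0.904% of the wild-type mean (limma, log2 fold change -3.34, adjusted p = 0.00049). It has the 124-base middle exon, and its transcript was the best match of CASP5 outside CASP5 itself, at 64.9% identity over 441 bases. It overlaps AT1G14150 on the opposite strand. Of the other 3 CASP-like genes with that exon length, 4B1 (AT2G38480) had a shr-2 mean at 69.7% of wild type, 1B2 (AT4G20390) at 41.1% and 1B1 (AT5G44550) at 99.9%. 4B1 was called lower (limma, adjusted p = 0.024), a call lost when any 1 of the 4 libraries was left out (limma, 0.0682 to 0.128). 1B1 did not pass. 1B2 did not pass (limma, adjusted p = 0.0559) but did under 4 alternatives, which include median centring and leaving out shr-2 replicate 2 (limma, 0.0209 to 0.0466).

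CASP-like protein 1D1 (AT4G15610), the most abundant of the family, fell from 142 and 155 FPKM to 49.0 and 61.1 FPKM (limma, adjusted p = 0.00283). Its neighbour AT4G15620 rose from 4.29 and 5.02 FPKM to 13.5 and 13.7 FPKM (limma, adjusted p = 0.00193), and the next gene, CASP-like protein 1E1 (AT4G15630), read 28.5 and 27.5 FPKM in wild type and 26.9 and 32.2 FPKM in shr-2 and did not pass. No transcript of another gene matched these 3 at 90% identity over at least 50% of their length. The calls of 1A1, 1D1 and AT4G15620 held under every alternative run. CASP-like protein 4D1 (AT2G39530) fell from a mean of 9.46 to 2.90 FPKM, a call lost when wild-type replicate 1 or replicate 2 was left out (limma, adjusted p = 0.0611 and 0.108). The genes called higher also included 2B1 (AT4G16442, 37.0 to 69.2 FPKM), 2B2 (AT2G35760, 19.7 to 32.7 FPKM), AT5G54980 (23.4 to 36.0 FPKM) and AT2G37200 (58.2 to 84.6 FPKM). The call of 2B2 was lost without wild-type replicate 1 (limma, adjusted p = 0.0557) and that of 2B1 without wild-type replicate 2 (0.0535). Those of AT5G54980 and AT2G37200 were lost when any 1 library other than shr-2 replicate 1 was left out (limma, 0.0599 to 0.162).

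**Figure D4:**
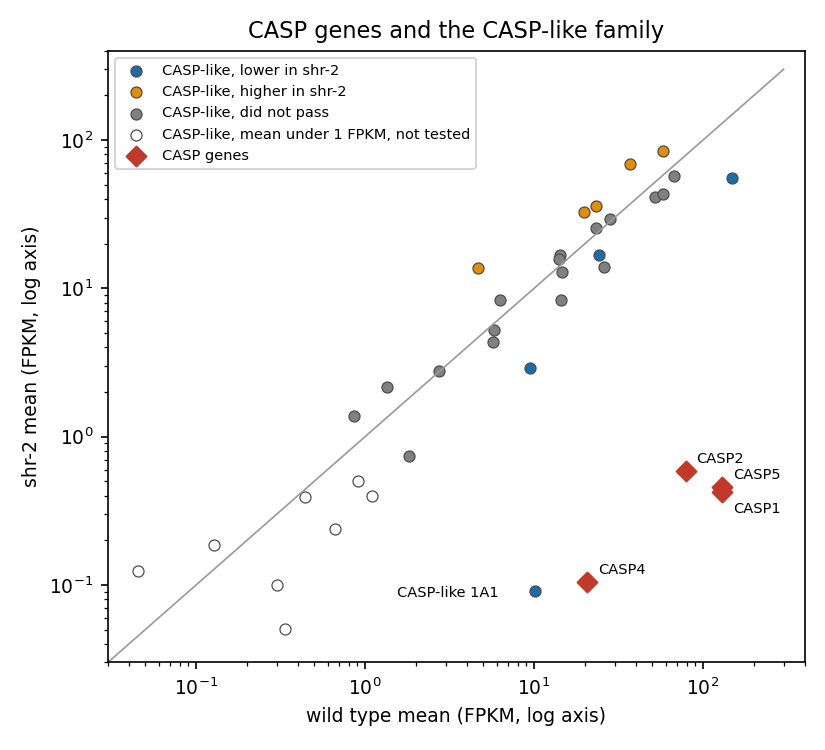
Mean level in wild type and in shr-2, in FPKM on log axes, for 4 CASP genes and the CASP-like genes above 0 in both genotypes. The line marks equal levels. The CASP genes and CASP-like protein 1A1 lie under 1 FPKM in shr-2 with wild-type means of 10.1 to 130.2 FPKM, and most of the family lies near the line.

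Genes next to the CASP genes on the chromosomes were not lost with them. Of the 8 nearest measured neighbours, all were tested, 2 were called lower and 1 higher, against 13.7% and 13.9% of all genes tested. The log2 fold changes of these neighbours ran from -0.85 to 1.02. AT5G06190 beside CASP4, called lower, read 3.86 and 4.64 FPKM in wild type and 2.52 and 2.38 FPKM in shr-2. Its call (limma, log2 fold change -0.6, adjusted p = 0.0277) was not followed through the alternatives. AT2G36090, which overlaps the end of CASP1, read 8.84 and 7.46 FPKM in wild type and 4.99 and 3.30 FPKM in shr-2. AT2G36110, on the other side of CASP1, read 2.78 and 2.03 FPKM in wild type and 4.83 and 7.13 FPKM in shr-2. Both calls were lost when any 1 library other than shr-2 replicate 1 was left out (limma, adjusted p of 0.0522 to 0.160).

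Markers of the endodermis and of other tissue layers were read beside these falls. Among all genes tested, 13.7% were called lower and 13.9% higher. The 5 markers of endodermis and ground tissue summed to 113.5 and 127.8 FPKM in wild type and to 45.7 and 47.4 FPKM in shr-2. Of the 4 tested, 3 were called lower (SCR, MYB36 and JKD). SCL3 kept 79.1% of its wild-type mean and did not pass (limma, adjusted p = 0.0622). MGP lay under 1 FPKM and was not tested. SCR and MYB36 are on the endodermis list and on the pathway list. In the root SCR acts with SHR and MYB36 lies downstream of it, so they do not mark the layer independently of SHR. The 4 xylem markers summed to 220.9 and 237.9 FPKM in wild type and to 247.1 and 239.8 FPKM in shr-2, with 0 called lower and 1 higher. The 3 phloem markers summed to between 94.4 and 119.6 FPKM per library with 1 called lower, and the 3 epidermis markers to between 493.9 and 706.9 FPKM with 0 called. The 4 cotyledon and leaf markers summed to 1297 and 1546 FPKM in wild type and to 5615 and 7961 FPKM in shr-2, most of it RBCS1A, and 2 of them were called higher. The part of tissue make-up in the fall of the CASP genes was not tested.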

How the data were processed

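Stranded mRNA libraries of 4 hypocotyl samples were compared. CASAVA 1.8.2, TopHat2 2.0.13, Cuffdiff 2.2.0 and the TAIR10 build are named, with no roles, per the submitters' processing notes, and Araport11 gene models per the file headers. One deposited table gives FPKM for each gene in each library. The authors' other table compares the genotypes: its deposited columns are mean FPKM, log2 fold change, fold ratio without sign, test score, p-value and q-value. No source names the strand setting of the counting. Read counts were not used.

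The submitters' gene loci matched TAIR10.1 by identifier for 32538 of 32538 genes. Of these, 99.98% contained the annotated gene and 71.72% had the same ends. The submitters' loci of CASP1 (15158561 to 15160799) and CASP5 (4967011 to 4970045) were wider than the annotated genes. Coordinates and sequences are from the RefSeq copy of TAIR10.1, counted from 1. Both genotypes entered 1 limma fit (limma 3.58.1, R 4.3.3, mean-variance trend) on log2(FPKM + 1), 2-sided, with Benjamini-Hochberg adjustment over the 19920 genes whose mean reached 1 FPKM. Each p-value sets the difference between the genotypes against a spread between libraries that is moderated across genes. The CASP genes were kept whatever their mean, and all 4 described passed anyway. A further gene of the set is not reported here. The fit was tested on simulated data. Transcripts were compared with blastn 2.17.0 and coding sequences aligned with Biopython 1.88. Alternatives changed the pseudocount, the filter, the scaling, the trend, the replicate block and the libraries used. The CASP genes and the lists were chosen with earlier results of these data known. Named genes were, of the pathway list, the 6 called genes with the smallest p and any called the other way. Of the CASP-like family they were up to 4 called genes in each direction and the 2 with the highest mean FPKM. For each CASP gene, the 2 nearest genes by pattern were named. ESB1, SCR, GSO1, the genes flanking CASP1, AT5G06190 and some CASP-like genes described for their exons or position were chosen after their values were seen.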

Additional observations from a re-analysis of the deposited data

How the results depend on the processing

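All 4 CASP genes were called lower under each of the 12 alternatives run, in the same direction and with adjusted p of at most 0.00903. With a pseudocount of 0.1 the log2 fold changes ran from -8.38 (CASP1) to -6.69 (CASP4), against -6.56 to -4.29 with 1, so the size of these falls depends on the pseudocount. Over all alternatives CASP1 lay between -8.38 and -6.19 and CASP4 between -6.69 and -4.15. With no filter on low values, 0 pathway genes were called higher in place of 1. With a mean of at least 5 FPKM the count was also 0, because CIF1 lay under that filter and was not tested. Leaving out 1 library at a time gave 2168 to 4133 called genes in place of 5503, with 2168 and 2387 without wild-type replicate 1 and 2. It gave 0 to 1 pathway genes called higher, 2 to 5 CASP-like genes called lower and 2 to 5 called higher. The lowest of these CASP-like counts, 2 and 2, came when wild-type replicate 1 or replicate 2 was left out, and without shr-2 replicate 2 the higher count was 3. The library left alone in its group is assumed to vary like the others. The replicate numbers are not stated to mark shared material. Their deviations correlated at 0.305 across genes, and a fit with the replicate number as a block called 8729 genes and 9 CASP-like genes lower, with the same 4 CASP genes called. Of the other genes named, 25 were recomputed in 296 cases, of which 31 lost a call, 4 gained one and 4 changed sign without a call. The log2 fold change of CASP-like protein 1B1 was 0.00785 with quantile normalization and ran from -0.279 to 0.234 with 1 library left out, and that of 1E1 ran from -0.053 to 0.193. With no filter on low values the calls of CIF1, GSO1 and AT2G36090 were lost, and without a mean-variance trend that of GSO1. The causes were not tested. Mutant levels of fewer than 3 estimated fragments, in CASP4 and in shr-2 replicate 2 of CASP1, limit the precision of those folds.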

Other observations

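Residual levels of genes lost in shr-2 were mostly higher in the same mutant library. Of 81 tested genes with a wild-type mean of at least 10 FPKM and a shr-2 mean under 1 FPKM, 58 (71.6%) were higher in shr-2 replicate 1 than in replicate 2. Of the CASP genes 3 of 4 were, CASP4 being the exception, and of the 11 pathway genes in that set 10 were. These CASP and pathway genes are part of the 81. The share over all tested genes is not given here, so the pattern cannot be called particular to lost genes. The authors' deposited table calls 29 (51.8%) of its 56 completed tests with a wild-type mean of at least 10 FPKM and a log2 fold change of -6 or lower, so CASP1 and CASP4 are not alone among very large falls in missing that table's threshold. No cause was tested for either pattern.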
